A study of Homo sapiens with 4 samples.

Results

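The genes described here encode the coats, tethers and fusion factors that move proteins from the endoplasmic reticulum (ER) through the Golgi. They were chosen by symbol, with earlier results of these data known. The choice took every protein-coding gene on chromosomes 1 to 22 whose symbol begins with SEC and a digit, with COPA, COPB, COPE, COPG or COPZ, with TRAPPC, with ARF and a digit or with TMED and a digit, together with NAPA, NAPB, NAPG and NSF. It gave 73 of 19126 protein-coding genes. TRAPPC2 lies on the X chromosome and was not included. Binding was profiled in NB4, a line from human acute promyelocytic leukemia in which the PML and RARA genes are fused. The assay was CUT&Tag, in which an antibody directs a transposase to the chromatin it binds. The 4 libraries were made with antibodies against PPARα, a fatty acid-activated nuclear receptor, and PML/RARA, and with an IgG control named for each. The labels give NB4 as the only cell line and no drug or other agent, so all libraries share that cell background. Which epitope the PML/RARA antibody recognises is not stated in these sources, so binding of normal PML or RARA cannot be told apart from that of the fusion. There is 1 peak list for each of the 2 specific antibodies and no replicate, so no test between conditions was possible and the counts below describe these lists.

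Secretory proteins enter the ER through the SEC61 channel and leave it in vesicles coated by COPII, whose inner layer is built from SEC23 and SEC24 and whose outer cage is built from SEC13 and SEC31. COPI, recruited by ARF GTPases, carries vesicles back from the Golgi and within it, and TMED proteins are cargo receptors of both routes. TRAPP complexes tether incoming vesicles and activate RAB GTPases. SNARE proteins such as SEC22B then fuse the membranes, and the ATPase NSF with its SNAP adaptors (NAPA, NAPB and NAPG) takes the spent SNARE complexes apart. Promyelocytes are secretory cells that fill their granules along this route.

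A gene was counted as carrying a peak when any base of a peak lay within 1 kb of either annotated end, called an end peak below. The PPARα list held 9829 peaks and the PML/RARA list 46021, and read depth is unknown. Absence of a peak therefore means only that none was called. For each peak the authors' lists give a fold enrichment, a ratio over background, and a −log10 q. Neither is on a common scale between the lists, so each is compared within a list only. Paired values in parentheses are the PPARα fold and then the PML/RARA fold of the strongest end peak, where strongest means of highest −log10 q. Peaks do not measure expression, so the marker genes do not settle the labelled cell type. Of 8 promyelocyte markers PPARα marked 1 (MPO, against 32.9% of all genes) and PML/RARA 5 (against 58.8%), and ELANE, CTSG and CD33 had neither. Of 6 lymphoid markers PPARα marked 1 (CD8A) and PML/RARA 3, and of 4 erythroid markers none carried a peak of either list.

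The upstream sequences of 1 gene in each of 6 classes are shown first, because peaks of both lists lay over them. In each class the sequence is that of the gene with the best joint rank by −log10 q in both lists, among those with a promoter entry, at least 50 upstream bases under each peak and no other annotated gene in the stretch. Each is the stretch of 250 bases that ends just before the start in the RefSeq promoter table, on hg38 and from RefSeq (GRCh38.p14), printed on the gene's strand. Capitals mark GC boxes (GGGCGG), E-boxes (CACGTG), the ETS core (CCGGAAG) and the unfolded protein response element (TGACGTGG), in either orientation. The stretches are chr19:47515064-47515313 for NAPA (minus strand), chr12:54324881-54325130 for COPZ1 (plus), chr20:18507298-18507547 for SEC23B (plus), chr19:45178238-45178487 for TRAPPC6A (minus), chr1:228082458-228082707 for ARF1 (plus) and chr19:10835741-10835990 for TMED1 (minus).
NAPA: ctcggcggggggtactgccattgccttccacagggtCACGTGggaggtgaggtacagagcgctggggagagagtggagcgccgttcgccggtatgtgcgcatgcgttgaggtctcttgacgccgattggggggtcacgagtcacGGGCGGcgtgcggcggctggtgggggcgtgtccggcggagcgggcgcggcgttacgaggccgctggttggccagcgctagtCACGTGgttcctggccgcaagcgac
COPZ1: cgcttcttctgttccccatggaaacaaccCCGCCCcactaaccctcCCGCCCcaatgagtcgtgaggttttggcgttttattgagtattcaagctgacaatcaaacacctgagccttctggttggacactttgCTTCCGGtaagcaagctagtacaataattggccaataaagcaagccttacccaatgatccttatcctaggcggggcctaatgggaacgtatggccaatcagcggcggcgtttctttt
SEC23B: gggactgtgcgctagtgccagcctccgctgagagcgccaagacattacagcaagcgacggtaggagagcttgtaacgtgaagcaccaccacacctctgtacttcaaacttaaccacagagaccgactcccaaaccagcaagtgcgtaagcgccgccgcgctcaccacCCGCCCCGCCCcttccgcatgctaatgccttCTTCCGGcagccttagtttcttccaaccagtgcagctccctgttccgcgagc
TRAPPC6A: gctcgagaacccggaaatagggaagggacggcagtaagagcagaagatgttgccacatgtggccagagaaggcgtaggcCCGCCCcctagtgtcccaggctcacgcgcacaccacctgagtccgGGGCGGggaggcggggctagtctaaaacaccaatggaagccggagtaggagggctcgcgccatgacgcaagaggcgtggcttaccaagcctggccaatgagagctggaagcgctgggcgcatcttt
ARF1: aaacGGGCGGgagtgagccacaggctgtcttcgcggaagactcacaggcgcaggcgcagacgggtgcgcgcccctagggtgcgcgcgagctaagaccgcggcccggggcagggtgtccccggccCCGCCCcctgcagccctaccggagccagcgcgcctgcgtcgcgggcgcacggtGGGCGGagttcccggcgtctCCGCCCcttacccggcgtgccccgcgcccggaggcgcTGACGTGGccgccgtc
TMED1: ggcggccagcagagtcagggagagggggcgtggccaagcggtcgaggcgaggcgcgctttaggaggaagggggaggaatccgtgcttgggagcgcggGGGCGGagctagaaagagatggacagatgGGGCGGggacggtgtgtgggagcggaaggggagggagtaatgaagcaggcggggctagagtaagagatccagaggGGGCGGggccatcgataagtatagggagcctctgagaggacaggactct
Peaks of both lists covered all 250 bases at NAPA, COPZ1, TRAPPC6A and TMED1. The TMED1 start in the promoter table lies inside the annotated span of the gene, and so does the stretch printed for TMED1. At SEC23B the PPARα peak covered 99 of these bases and the PML/RARA peak 209, and at ARF1 they covered 79 and 250. ARF4 ranked higher than ARF1 but has no promoter entry, and the PPARα peak of ARF1 was weak (fold 4.44, rank 8395 of 9829).

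Secretory pathway genes carried end peaks of both antibodies in a larger share than protein-coding genes as a whole. PPARα peaks marked 53 of 73 genes (72.6%, 95% exact interval 60.9 to 82.4), where 32.9% of all protein-coding genes were marked. PML/RARA peaks marked 66 of 73 (90.4%, 81.2 to 96.1), against 58.8% of all. All 53 genes with PPARα were among the 66 with PML/RARA, so 53 genes had both (32.5% of all genes). Another 13 had PML/RARA only (26.4% of all genes) and 7 had neither (40.8% of all genes). The 7 were SEC16B, NSF, TRAPPC3L, TMED6, SEC14L3, SEC14L4 and SEC14L6. Only 72 protein-coding genes (0.376%) carried PPARα without PML/RARA. Where a PML/RARA peak was present, PPARα was present too at 53 of 66 secretory genes (80.3%) and at 55.2% of all. The intervals cover counting over genes only, neighbouring genes can share a peak, and no test of these shares was made. The genes were also chosen with earlier results of these data known. Limiting both lists to peaks with a −log10 q of at least 5 left PPARα at 35 of 73 genes (24.3% of all) and both peaks at 35 (24.2% of all). Limiting PPARα to peaks of at least 5-fold left 42 (27.8% of all). With the PML/RARA list limited to its best 9829 peaks, it marked 41 of 73 (30.9% of all). When peaks nearer to another gene's end were set aside, PPARα marked 45 (27.2% of all) and PML/RARA 56 (52.6%).

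**Figure D1:**
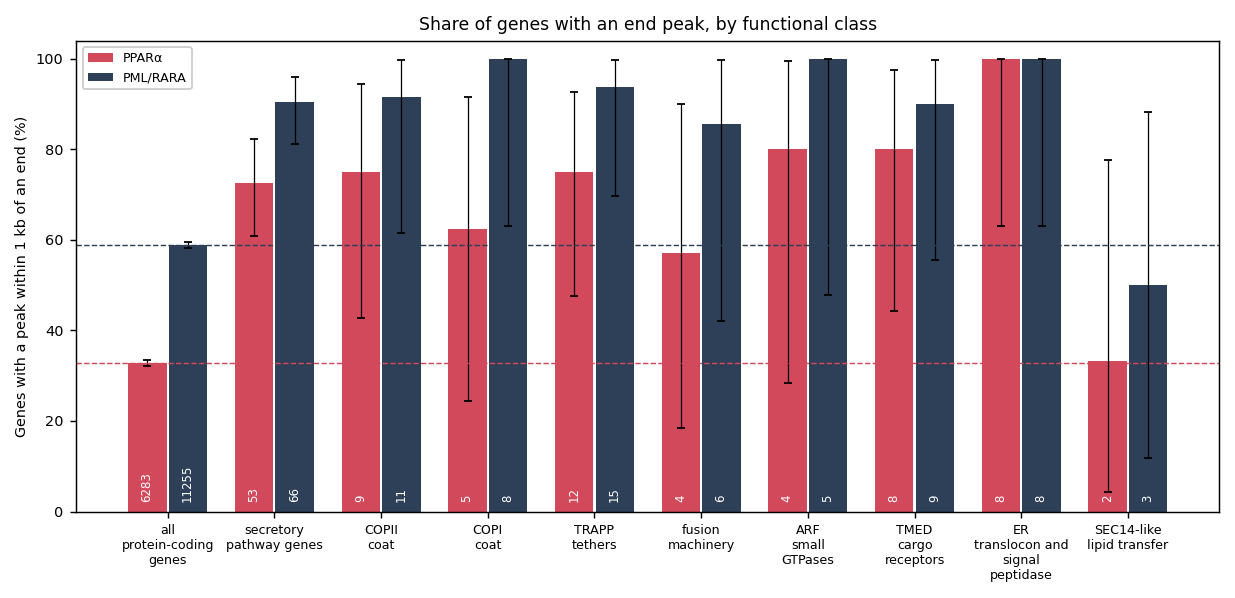
Share of genes (percent) with a peak within 1 kb of an end in each class, for PPARα (red) and PML/RARA (dark blue); white digits are gene counts, bars carry exact 95% binomial intervals and dashed lines mark the shares over all protein-coding genes (32.9% and 58.8%). The ER translocon and signal peptidase genes reached 8 of 8 in both lists, and the SEC14-like genes had the lowest shares, 2 and 3 of 6.

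The higher share was not accompanied by stronger PPARα peaks. The median fold of the strongest PPARα end peak was 6.91 over the 53 genes and 7.07 over all 6283 marked genes, with a range of 3.51 to 18.3 for the secretory genes. The median fold of PML/RARA was 17.2 over 66 secretory genes, with a range of 5.10 to 31.9, and 14.2 over all 11255 marked genes. Genes of all kinds with stronger PML/RARA peaks carried PPARα more often, so the genes were sorted by quartile of their strongest PML/RARA end peak over all marked genes. In the lowest quartile PPARα marked 2 of 9 secretory genes against 20.4% of all, in the next 13 of 16 against 51.6%, in the third 16 of 19 against 67.8%, and in the highest 22 of 22 against 81%. The secretory genes were thus above the background in the upper 3 quartiles and near it in the lowest.

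**Figure D2:**
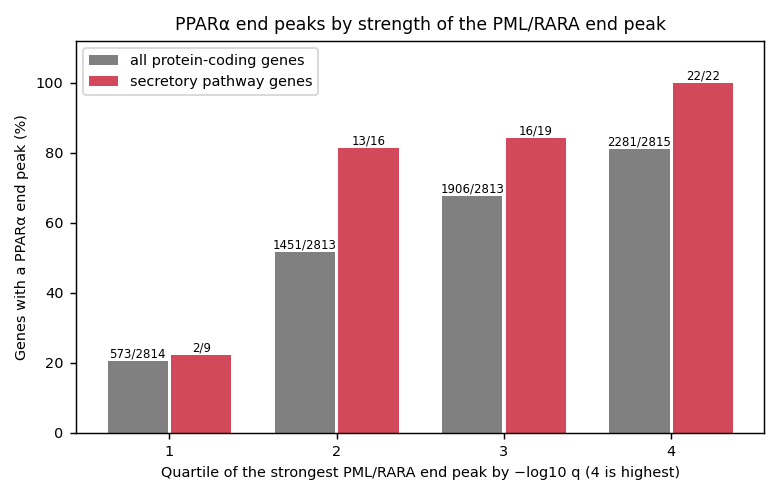
Share of genes (percent) with a PPARα end peak in each quartile of the strongest PML/RARA end peak by −log10 q, for all protein-coding genes (grey) and secretory pathway genes (red), with counts above the bars. All 22 secretory genes in the highest quartile had a PPARα end peak.

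Other properties also moved with the marking over all protein-coding genes. The promoter windows of the secretory genes had a median GC content of 64.8% and 27 CG dinucleotides, against 63.0% and 22 over all protein-coding genes with an entry. Over all genes the median GC content was 65.0% with a PPARα end peak and 61.0% without, and over the secretory genes it was 65.0% with and 64.3% without. Another protein-coding gene ended or began within 1 kb for 28 of 73 (38.4%), against 29.0% of all genes. Among those 28 PPARα marked 22 (50.4% of all genes with such a neighbour), and among the other 45 it marked 31 (25.7% of all genes without one). PML/RARA marked 26 of the 28 (80.3% of all such genes) and 40 of the 45 (50.1%). The share was above that of all such genes both with and without a close neighbour. The part of GC content, of PML/RARA peak strength and of close neighbours in the share was not tested.

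Differences in PPARα share between the 4 machineries compared rested on few genes and were not tested. PPARα marked 9 of 12 COPII genes, 12 of 16 TRAPP genes, 5 of 8 COPI genes and 4 of 7 fusion genes. Together these were 30 of 43 (69.8%), where 32.9% of all protein-coding genes were marked. The exact 95% interval was 42.8 to 94.5% for COPII and 18.4 to 90.1% for the fusion genes. These intervals cover counting over genes only and cannot show whether the classes differ or are alike. The order of the classes changed with the setting. With peaks of at least 5-fold PPARα marked 5 COPII, 10 TRAPP, 4 COPI and 3 fusion genes (27.8% of all protein-coding genes). With the 500-base window it marked 6, 12, 5 and 4 (31.0% of all). With a −log10 q of at least 5 it marked 5, 9, 4 and 2 (24.3% of all). In these 3 settings the COPII share was below that of COPI. PML/RARA marked 11 of 12 COPII genes, 15 of 16 TRAPP genes, 8 of 8 COPI genes and 6 of 7 fusion genes. Together these were 40 of 43 (93.0%), against 58.8% of all protein-coding genes.

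**Figure D3:**
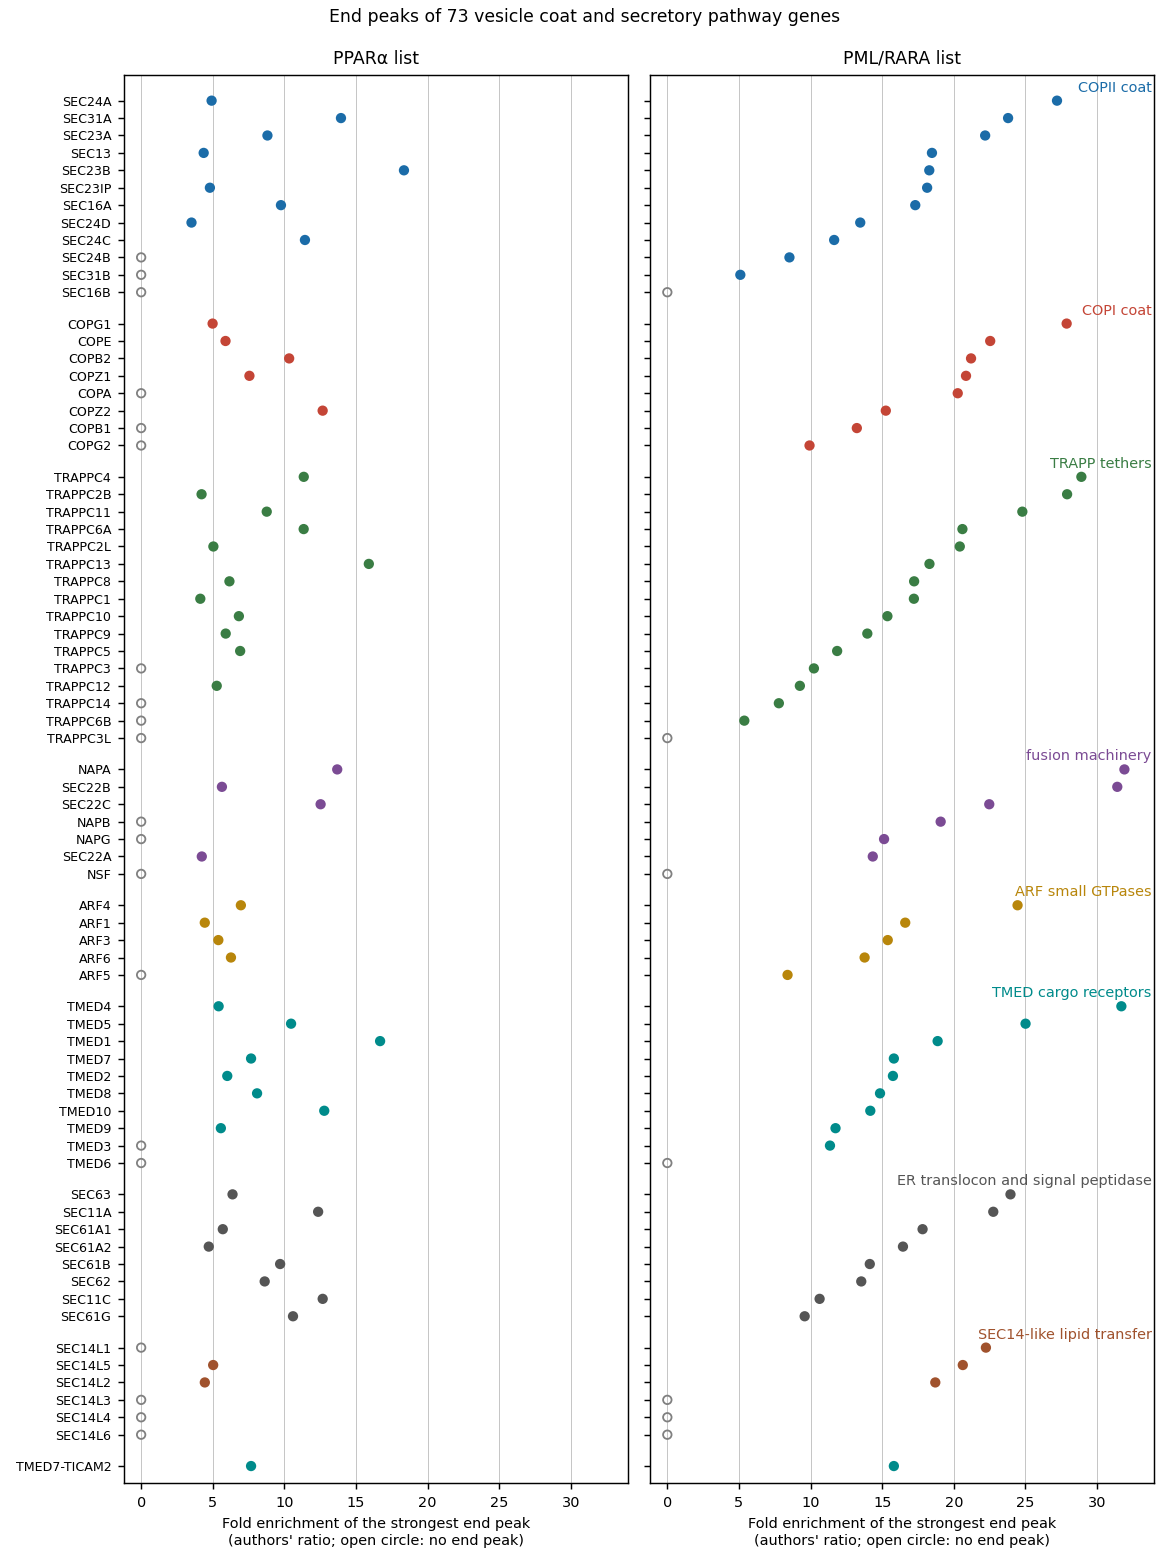
Fold enrichment (the authors' ratio, each list on its own scale) of the strongest end peak of each of the 73 genes in the PPARα list (left) and the PML/RARA list (right), grouped by class; open circles at 0 are genes with no end peak. NAPA has the highest PML/RARA fold (31.9) and SEC23B the highest PPARα fold (18.3).

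The COPII coat was marked through most of its inner layer. SEC23B, whose product stimulates GTP hydrolysis by SAR1, had the coat's strongest PPARα peak, at chr20:18507449-18507970 (fold 18.3, −log10 q 53.0, rank 102 of 9829). Its PML/RARA peak (18.3, −log10 q 53.1) ranked 7498 in its own list. The paralog SEC23A carried a PPARα peak of 8.82 and a PML/RARA peak of 22.2. Among the SEC24 cargo adaptors, SEC24C (PPARα 11.4, PML/RARA 11.6) had the strongest PPARα peak. SEC24A paired a weak PPARα peak (4.92) with the strongest PML/RARA fold of the coat (27.2). SEC24D had a PPARα −log10 q of 1.44, near the lowest in that list (1.32), with a fold of 3.51, and SEC24B had a PML/RARA peak only (8.52). In all, 5 of the 6 SEC23 and SEC24 genes carried PPARα (32.9% of all protein-coding genes) and all 6 carried PML/RARA (58.8% of all).

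In the outer cage and at the exit sites the paralogs differed. SEC31A had peaks of both lists (PPARα 13.9, PML/RARA 23.8) at a start that it shares with the neighbouring THAP9, and a further peak of each list lay inside the gene (7.03 and 20.5). SEC31B had a weak PML/RARA peak only (5.10). SEC13, which also serves the nuclear pore, was the 1 gene of 53 whose PPARα end peak overlapped no PML/RARA peak. Its PPARα peak (4.37, −log10 q 2.55) ended 858 bases away from the gene, while its PML/RARA peak (18.5) lay over the start. SEC16A, the scaffold of ER exit sites, had the strongest COPII PML/RARA peak by −log10 q (297, fold 17.3, chr9:136483003-136484078). It lay within the gene, with its summit 1569 bases past the annotated start and over 2 further RefSeq starts of SEC16A, and the PPARα peak (9.76) overlapped it. SEC16B had no peak of either list, the nearest lying 109285 bases from its ends. SEC23IP, a partner of SEC23, had both (4.80 and 18.1).

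All 8 COPI genes carried PML/RARA (58.8% of all protein-coding genes) and 5 carried PPARα (32.9% of all). COPZ2, a zeta subunit, had the strongest PPARα peak of this coat (12.7, −log10 q 45.6, chr17:48047753-48048721), with a PML/RARA peak of 15.3 over it. This peak also lies at NFE2L1, a transcription factor gene, and although it covers the annotated upper end of COPZ2, its PPARα summit stands at -10752 bases from the start in the RefSeq promoter table. The other zeta gene, COPZ1, had folds of 7.56 and 20.8 directly over its start. COPB2 (10.3 and 21.2) and COPE (5.89 and 22.5), of the cage-forming part of the coat, had both. COPE shares its start with DDX49. COPG1 had both at its start (4.99 and 11.4), and its strongest PML/RARA peak (27.9) lay 948 bases beyond its finish, close to HMCES. COPA (20.3), COPB1 (13.2) and COPG2 (9.93) had PML/RARA peaks without PPARα. The nearest PPARα peak lay 3490 bases from an end of COPA.

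Among the tethers, the subunits particular to the TRAPPIII complex, which acts in autophagy as well as secretion, were all marked by both lists. TRAPPC13 had the strongest PPARα peak of the class (15.9, chr5:65624316-65624703) with a PML/RARA peak of 18.3. Its summits lay 610 and 641 bases upstream of its start, near SHLD3 and TRIM23. TRAPPC11 had folds of 8.77 and 24.8, TRAPPC8 6.16 and 17.2, and TRAPPC12 5.28 and 9.25. Of the TRAPPII subunits, TRAPPC10 (6.82 and 15.4) and TRAPPC9 (5.90 and 14.0) had both, and TRAPPC14 had PML/RARA only (7.79). These 7 genes thus held 6 with both peaks (32.5% of all protein-coding genes).

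In the shared TRAPP core, 6 of 9 genes had both lists (32.5% of all protein-coding genes) and 8 had PML/RARA (58.8% of all). TRAPPC6A had the best joint rank of the tethers, with PPARα 11.3 and PML/RARA 20.6 (−log10 q 26.0 and 191), at a start near BLOC1S3. TRAPPC4 had a PPARα fold of 11.4 and a PML/RARA fold of 28.9, and the summits were 2 bases apart. TRAPPC4 and RPS25, a ribosomal protein gene, share that promoter region. TRAPPC5 had 6.91 and 11.9, TRAPPC2L 5.04 and 20.4, and TRAPPC1 4.13 and 17.2. TRAPPC2B (4.22 and 27.9) is a near-copy of TRAPPC2, so reads within its exons may be split between them. TRAPPC6B had a weak PML/RARA peak only (5.37), and TRAPPC3L had none.

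TRAPPC3 was counted as PML/RARA only (10.2) because its annotated span holds a second RefSeq start farther in. At that inner start it had a PPARα peak of 6.77 (chr1:36149147-36149640), with its summit 68 bases past the start, and a stronger PML/RARA peak of 18.0. Counted at that start, TRAPPC3 carried PPARα as well.

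NAPA, the gene of the alpha SNAP adaptor, had the PML/RARA end peak with the highest −log10 q of all protein-coding genes. That peak (chr19:47514999-47515616) had fold 31.9 and −log10 q 1009.7 and ranked 7th among all 46021 peaks. The PPARα peak over it (chr19:47514806-47515622) had fold 13.7 and −log10 q 43.1, rank 173 of 9829. The PML/RARA and PPARα summits lay 233 and 280 bases upstream of the start, 47 bases apart. The stretch printed above holds a GC box with an E-box on either side. NAPA was also the 1 secretory gene with 2 PPARα end peaks. The second (9.12) lay 221 bases beyond its finish with a PML/RARA peak of 14.7.

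The other SNAP genes and NSF had no called PPARα end peak. NAPB (19.1) and NAPG (15.1), the beta and gamma SNAP genes, had PML/RARA peaks and no PPARα peak, and the nearest PPARα peak was 11879 bases from an end of NAPB. NSF, the ATPase on which the SNAPs act, had no end peak in either list and none inside the gene, and the nearest PML/RARA peak was 13690 bases away. How well reads map at NSF was not examined, so the absence shows only that none was called there. The SEC22 genes, of which SEC22B encodes a SNARE, all had both (32.5% of all protein-coding genes). These were SEC22C (12.5 and 22.5), which shares its start with NKTR, SEC22B (5.64 and 31.4) and SEC22A (4.23 and 14.3). With a −log10 q of at least 5, SEC22A and SEC22B had no PPARα peak (24.3% of all protein-coding genes had one). SEC22B has near-identical pseudogene copies on chromosome 1, so its value is uncertain. SEC22C also held 2 further peaks of each list inside the gene, with PPARα folds of 9.21 and 5.62.

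The ARF GTPases were all marked by PML/RARA (58.8% of all protein-coding genes), and 4 of 5 by PPARα (32.9% of all) with folds no higher than 6.96. ARF4 had the strongest peaks of both lists (6.96 and 24.4). ARF6, which acts at the plasma membrane, had 6.27 and 13.8. ARF3 had 5.39 and 15.4, and ARF1, the main recruiter of COPI, had 4.44 and 16.6 with summits 452 bases apart. ARF1 also had a PML/RARA peak of 18.9 inside the gene, 5360 bases past its start. ARF5 had a PML/RARA peak only (8.39).

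TMED1 had the strongest PPARα peak of all 73 genes by −log10 q. Its fold was 16.7 and its −log10 q 84.2 (chr19:10835555-10836323, rank 21 of 9829), and the PML/RARA peak over it had 18.9 and 298. This region also lies near C19orf38. TMED10 (12.8 and 14.2), TMED5 (10.5 and 25.01), TMED8 (8.09 and 14.8), TMED7 (7.67 and 15.8), TMED2 (6.01 and 15.7), TMED9 (5.56 and 11.7) and TMED4 (5.41 and 31.7) also had both. Among the end peaks of the 73 genes, TMED4 had the second highest PML/RARA −log10 q (322) with a PPARα −log10 q of only 4.28. TMED3 had PML/RARA only (11.4) and TMED6 neither. In all, 8 of the 10 TMED genes had both (32.5% of all protein-coding genes) and 9 had PML/RARA (58.8% of all). With a −log10 q of at least 5, TMED4 and TMED9 had no PPARα peak and 6 of 10 kept one (24.3% of all). The readthrough gene TMED7-TICAM2 begins at the TMED7 start and holds the same peaks, so these 53 genes rest on 52 distinct PPARα peaks and the 66 on 65 distinct PML/RARA peaks.

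All 8 ER entry genes that match the symbol rule were marked in both lists as deposited, against 32.5% of all protein-coding genes. Genes of ER entry outside the rule were not examined. The 4 SEC61 channel genes, SEC62 and SEC63, and the signal peptidase genes SEC11A and SEC11C all carried PPARα and PML/RARA peaks. With the best 9829 PML/RARA peaks alone, SEC11C, SEC61B, SEC61G and SEC62 had no PML/RARA peak. In that setting 4 of 8 genes kept one (30.9% of all protein-coding genes). With a −log10 q of at least 5, SEC61A1 and SEC61A2 had no PPARα peak and 6 of 8 kept one (24.3% of all). The highest PPARα folds were those of SEC11C (12.7) and SEC11A (12.4), followed by SEC61G (10.6), SEC61B (9.70), SEC62 (8.62), SEC63 (6.38), SEC61A1 (5.70) and SEC61A2 (4.72). PML/RARA folds ran from 9.59 at SEC61G to 24.0 at SEC63. SEC61B shares its start with ALG2, a glycosylation gene of the ER. The median PPARα fold was 9.16 in this class, against 8.82 in COPII, 9.08 in the fusion genes, 7.56 in COPI and 6.49 in TRAPP, and the ranges overlapped.

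The SEC14-like genes match the rule by symbol but encode lipid transfer proteins. PPARα marked 2 of 6 (32.9% of all protein-coding genes) and PML/RARA 3 of 6 (58.8% of all). With a −log10 q of at least 5, PPARα marked 0 (24.3% of all). SEC14L5 had both (5.03 and 20.6), SEC14L2 had both near its finish (4.44 and 18.7), and SEC14L1 had a PML/RARA end peak only (22.2). SEC14L3, SEC14L4 and SEC14L6 had none at their ends. SEC14L1 also had a strong site of both lists far inside the gene, where the PML/RARA peak (chr17:77140259-77141014) had fold 27.5 and −log10 q 571 and the PPARα peak a fold of 9.51.

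The 1 kb window set which genes were counted at its edge. For PPARα the genes just inside were SEC14L2 (904 bases from an end) and SEC13 (858), and those just outside were TRAPPC3L (2277), TMED6 (3268) and COPA (3490). For PML/RARA, SEC14L2 (962) was just inside, and TMED6 (1938) and TRAPPC3L (2115) were just outside. Peaks within the genes but away from their ends numbered 6 for PPARα, in 4 genes (TRAPPC3, SEC14L1, SEC22C and SEC31A). Each of the 6 overlapped a PML/RARA peak. Of these 6, 4 covered another RefSeq start of the same gene, 1 in each of the 4 genes, where 17.2% of such PPARα peaks over all protein-coding genes did. The PPARα summits lay at -241 bases from that start in SEC14L1, at -183 in SEC22C, at -7 from the innermost of 3 starts in SEC31A and at 68 in TRAPPC3. PML/RARA peaks covered the same 4 starts, with folds of 27.5, 19.5, 20.5 and 18.0. Of all internal PML/RARA peaks in genes with a promoter entry, 4 of 55 (7.27%) covered such a start, near the 6.15% over all protein-coding genes. PML/RARA had 58 internal peaks in 28 genes, the most (5 each) in SEC16A, SEC14L5 and TRAPPC10. No share of all protein-coding genes with internal peaks is given here, so neither gene count can be read as high or low.

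The peaks of the lists mostly overlapped, with summits set apart. Of the 53 strongest PPARα end peaks, 52 overlapped the PML/RARA list by 1 base or more, as did 97.9% of those of all protein-coding genes. Summits were a median of 156 bases apart (range 2 to 975), and 34 of the 53 (64.2%) lay within 200 bases, against 57.3% for all genes. For genes with an entry in the promoter table, the PPARα summit was within 1 kb of the start at 43 of 47 and the PML/RARA summit at 54 of 59. PML/RARA summits lay upstream of the start at 42 of 54, with a median of -86 bases (quartiles -129 and -12.3). PPARα summits spread to both sides, 22 upstream and 21 at or past the start, with a median of -5 (quartiles -226 and 90). Over all protein-coding genes the medians were -72 and 2, so these positions were close to the usual ones.

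**Figure D4:**
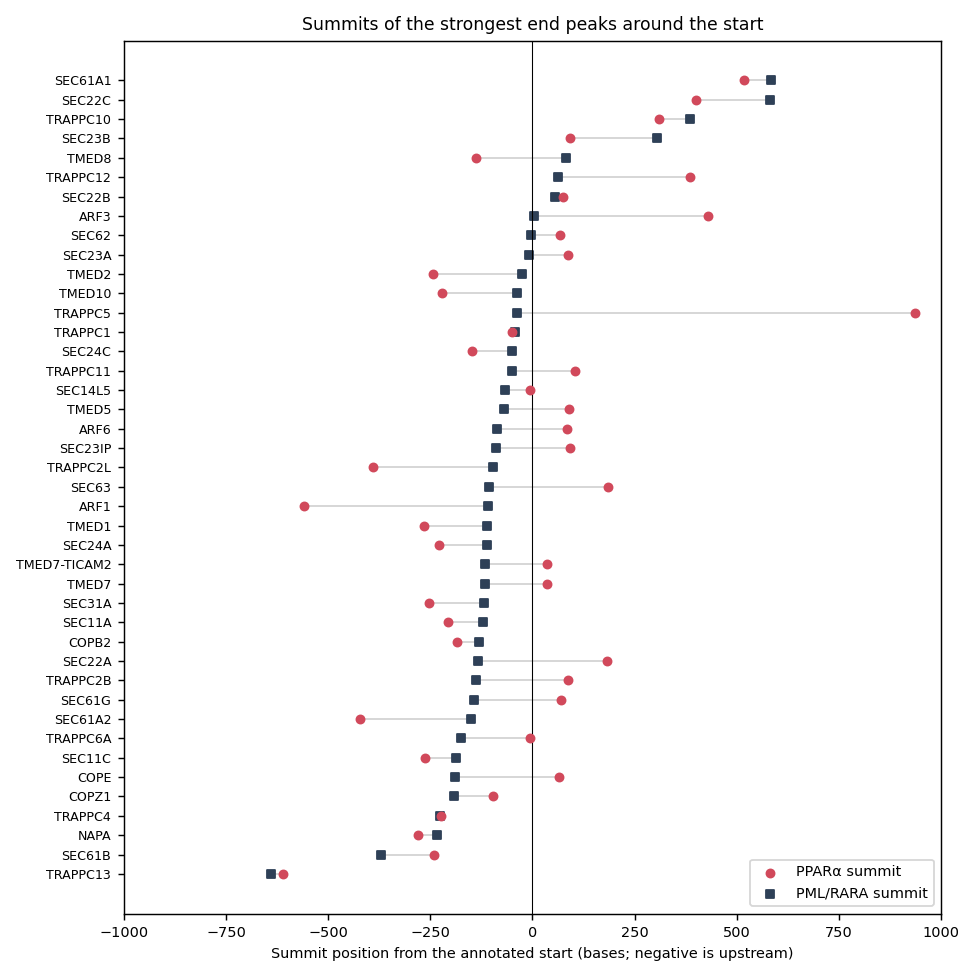
Position of the strongest end peak's summit in bases from the annotated start (negative is upstream) for the 42 genes whose PPARα (red circles) and PML/RARA (blue squares) summits both lie within 1 kb, ordered by the PML/RARA summit; grey lines join the summits of a gene. PML/RARA summits gather just upstream of the start, and PPARα summits lie on either side.

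Promoter windows from 250 bases before to 50 after the start were searched for 12 motifs on both strands, for the 66 genes with an entry and for 15101 protein-coding genes. The motifs were chosen with earlier results of these data known, and no test of their shares was made. The clearest difference was in TGACGTGG, a core bound by ATF6 and XBP1, the transcription factors of the unfolded protein response. It was found in 9 of 66 secretory promoters (13.6%) and in 123 of all (0.815%). The 9 genes were SEC16A, SEC16B, SEC23A and SEC24A of COPII, COPA, COPB1 and COPB2 of COPI, ARF1 and SEC62. The ETS core CCGGAAG was in 22 of 66 (33.3%, against 14.4% of all), and the GC box GGGCGG in 48 of 66 (72.7%, against 58.9%). The E-box CACGTG was in 8 (12.1%, against 8.77%).

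**Figure D5:**
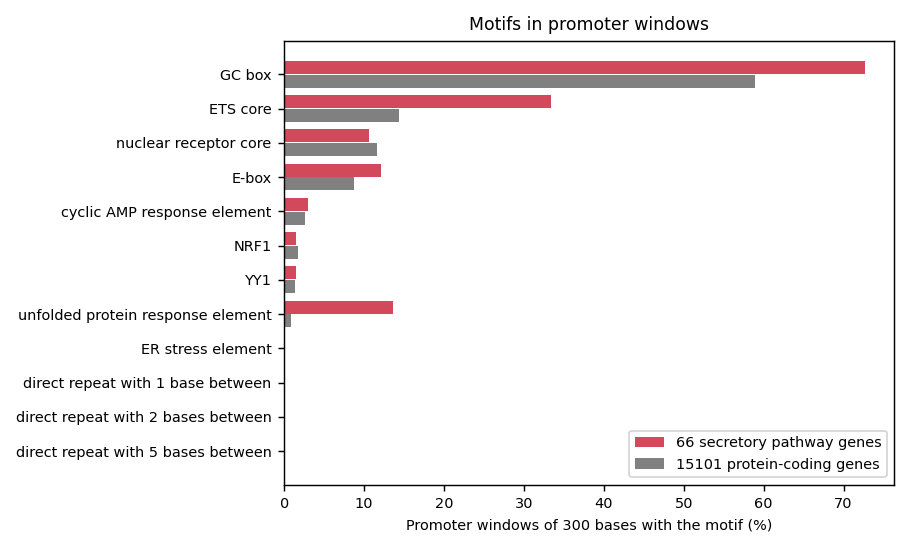
Share (percent) of promoter windows of 300 bases that hold each motif, for 66 secretory pathway genes (red) and 15101 protein-coding genes (grey). The unfolded protein response element shows 13.6% against 0.815%, and the direct repeats are at or near 0 in both.

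Motifs of nuclear receptors were counted in the same windows. AGGTCA, the core recognised by PPARα and by retinoic acid receptors, was in 7 of 66 windows (10.6%) and in 11.7% of all. Its direct repeat with 1 base between the copies, the textbook PPARα element, was in 0 of 66 and in 3 of 15101. The direct repeats of AGGTCA with 2 and 5 bases between, known from retinoic acid receptors, were in 0 windows of either set. Exact letters were required, so near matches were not counted. The ER stress element, in which CCAAT and CCACG stand 9 bases apart, was in 0 of 66 and in 0.119% of all. TGACGTCA, the cyclic AMP element, was in 2 (3.03%, against 2.65%). The NRF1 motif was in 1 (1.52%, against 1.77%) and the YY1 motif in 1 (1.52%, against 1.41%).

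The stretches of 30 bases around TGACGTGG are shown for the 5 of these 9 genes with a PPARα end peak at the promoter, since they set the motif beside the peaks; the motif, or its complement CCACGTCA, is in capitals. They are printed on the gene's strand and come from RefSeq (GRCh38.p14, hg38): chr1:228082681-228082710 for ARF1 (plus strand), chr3:139389825-139389854 for COPB2 (minus strand), chr3:139389632-139389661 for COPB2 (minus strand), chr14:39103221-39103250 for SEC23A (minus strand), chr5:134648595-134648624 for SEC24A (plus strand), chr3:169966779-169966808 for SEC62 (plus strand).
ARF1: cccggaggcgcTGACGTGGccgccgtcaga
COPB2: gctcagcggcaCCACGTCAcggcccttagt
COPB2: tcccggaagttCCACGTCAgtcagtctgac
SEC23A: tcccctcctctTGACGTGGcagaggcggcg
SEC24A: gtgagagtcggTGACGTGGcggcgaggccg
SEC62: ccctcctcgctCCACGTCAgagggaaccgg
The motif stretch lay under a PPARα peak at SEC23A, SEC24A, SEC62 and both sites of COPB2, and beside it at ARF1. PML/RARA peaks covered it at all 5 genes and also at COPA and COPB1. At SEC16A both peaks lay inside the gene, away from the motif, and SEC16B had no peak. Of the 9 genes, 6 had a PPARα end peak, and over all protein-coding genes with this motif the share was 39.0%, against 35.2% of all with an entry. For the ETS core the share was 59.0% over all genes, and 18 of the 22 secretory genes with it carried PPARα. Of the 66 secretory genes with an entry, 47 (71.2%) carried PPARα.

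Genes of the same route outside the symbol rule were counted from a list of 48. PPARα marked 28 (58.3%, against 32.9% of all genes) and PML/RARA 45 (93.8%, against 58.8%). The Golgi tethers, which include the COG subunits, held 10 of 12 with PPARα, led by COG2 (PPARα fold 15.9, PML/RARA 18.6) and COG3 (10.02 and 25.5), and 12 of 12 with PML/RARA. ER to Golgi SNAREs and their partners held 7 of 10, among them STX5, the syntaxin of this step (12.9 and 19.97), and BET1L (8.63 and 18.5). COPII regulators held 3 of 6, SAR1A (9.35 and 31.9), TFG (9.07 and 22.99) and SAR1B (4.56 and 14.9). ARF regulators held 3 of 6, with GBF1, the exchange factor for ARF1, among the PML/RARA only genes (6.29). Cargo receptors outside the TMED family held 5 of 13, and SURF4 and KDELR1 had no end peak in either list. ARCN1, the delta subunit of COPI, had PML/RARA only (11.3), so 5 of the 9 COPI subunit genes carried PPARα.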

How the data were processed

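CUT&Tag libraries of NB4 cells were analysed from 1 deposited peak list per antibody, PPARα and PML/RARA. The 2 IgG libraries were not analysed here. Coordinates are on hg38, and Bowtie2 2.2.9, SAMtools, MACS 1.4.2 and bedtools are named without roles or settings, per the submitters' processing notes. The layout is that of later MACS releases, and which version called the peaks is therefore unsettled. The deposited lists give, for each peak, a fold enrichment (a linear ratio over background), a −log10 q and a summit offset. Use of IgG as control is not stated.

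Genes and promoter sequences came from RefSeq tables of GRCh38.p14, and 66 of the 73 genes had a promoter entry. Peaks were joined to genes in Python 3.11.15 with pandas 2.3.3, and the join was tested on simulated data. Of several end peaks of a gene, that of highest −log10 q is reported, and of several promoter entries the first served for positions and motifs. Intervals are exact Clopper-Pearson (scipy 1.17.1). Alternatives were stricter peaks (a minimum of 5 in −log10 q or in fold), the best 9829 PML/RARA peaks, windows of 500 bases and 5 kb, summits in place of peaks, annotated starts alone, and peaks nearer to another gene left out. Full coordinates were planned for the genes with the 8 highest −log10 q in either list and the best of each class. They are printed here for some of these genes only, and also for internal peaks of TRAPPC3 and SEC14L1. Genes, classes and motifs were chosen with earlier results of these data known, and the subgroups within classes, the quartiles, the neighbour split and the search for internal starts after the values were seen. For the printed promoters the best joint ranks of COPI and COPII (COPZ2, SEC31A and SEC16A) were passed over, since the stretch lay outside the peaks or held another gene, and that of the ARF genes (ARF4), since it has no promoter entry. Alternatives for the ER translocon and SEC14-like classes were added after seeing the data.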

Additional observations from a re-analysis of the deposited data

How the results depend on the processing

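Under other settings 17 recomputed counts moved by over 1.5 times and the others stayed within that of the main one. With −log10 q of at least 5, PPARα marked 35 of the 73 genes and both lists 35, against 24.3% and 24.2% of all protein-coding genes, and the classes had 5 COPII, 2 fusion, 2 ARF and 0 SEC14-like genes. With fold of at least 5, PPARα marked 5 COPII genes and 1 SEC14-like gene (27.8% of all). PPARα also marked 1 SEC14-like gene with the 500-base window (31.0% of all) and 1 with summits in the window (31.7%). With the window of 5 kb PML/RARA marked 5 (69.4% of all). With the best 9829 PML/RARA peaks alone, PML/RARA marked 41 genes against 30.9% of all, with 7 COPII, 9 TRAPP, 4 TMED and 4 ER translocon and signal peptidase genes. The alternatives for the ER translocon and SEC14-like classes were chosen after seeing the data. Summits lay within 200 bases at 34 of 53 genes, where peaks overlapped at 52. Leaving out peaks nearer to another gene left 45 genes with PPARα (27.2% of all) and 56 with PML/RARA (52.6%). In each of the 8 settings the share of these genes exceeded that of all protein-coding genes for both lists. No paired analysis was possible because each antibody has 1 library. Unknown read depth limits what an absent peak shows.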
